A study of Mus musculus with 4 samples.

Results

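The 7 chemokine receptor genes Xcr1, Ccr9, Ccr2, Cx3cr1, Ccr1, Cxcr4 and Ccrl2 were followed across 4 sorted cell populations of EO771 tumours, a mammary carcinoma model in mice. The genes were chosen by symbol, with earlier results of these data known, from a table of 13976 genes, and all 7 were present. The populations were a dendritic cell (DC) population with intermediate CD103 and with CD11b (labelled CD103intCD11b+DC, here CD103int DC), CD103+ conventional DC of type 1 (cDC1), CD11b+ conventional DC of type 2 (cDC2) and macrophages, with 1 RNA sequencing library each. The study's title ties the accumulation of the CD103int DC to local treatment with heterodimeric interleukin-15. The labels give neither the treatment, age or number of the mice behind each library nor the gates of the sort.

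Chemokine receptors are G protein-coupled receptors that guide leukocytes along gradients of chemokines, small secreted proteins. Xcr1 binds Xcl1, a product of NK and T cells, and marks cDC1. Ccr9 binds Ccl25 and is known for homing to the gut and for its presence on plasmacytoid DC. Ccr2 brings monocytes out of the bone marrow in response to Ccl2 and Ccl7, Cx3cr1 binds fractalkine (Cx3cl1) on monocytes and macrophages, Ccr1 binds Ccl3, Ccl5, Ccl6 and Ccl9, and Cxcr4 binds Cxcl12. Ccrl2 is an atypical receptor that holds chemerin, the product of Rarres2, at the cell surface without signalling through G proteins.

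Of the 7 genes, 6 lie on mouse chromosome 9 (GRCm38), and 4 of those lie in 1 cluster with Cxcr6 and Ccr3. Within the cluster Ccr9 and Xcr1 were far higher in cDC1, and Ccr1 and Ccr2 were lower there. The bases just upstream of an annotated start site are shown for 3 of these neighbours, 2 from the cDC1 side (Xcr1 and Ccr9) and 1 from the other (Ccr1). The sequences are from RefSeq (GRCm38.p6), each of 250 bases, 5′ to 3′ on the gene's own strand and ending just before the start site. Capitals mark matches, on either strand, to 5 short motifs named after the sequences.
Xcr1, chr9:123862030-123862279, minus strand: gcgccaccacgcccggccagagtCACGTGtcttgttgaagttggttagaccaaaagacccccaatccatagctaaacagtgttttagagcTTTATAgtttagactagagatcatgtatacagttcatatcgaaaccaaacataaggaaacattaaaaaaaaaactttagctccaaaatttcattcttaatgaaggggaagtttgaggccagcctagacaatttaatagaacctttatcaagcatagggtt
Ccr9, chr9:123766961-123767210, plus strand: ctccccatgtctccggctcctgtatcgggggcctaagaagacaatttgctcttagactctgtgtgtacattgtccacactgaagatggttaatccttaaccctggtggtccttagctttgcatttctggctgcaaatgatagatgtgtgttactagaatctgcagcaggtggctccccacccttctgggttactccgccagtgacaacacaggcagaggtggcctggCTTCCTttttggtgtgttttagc
Ccr1, chr9:123968693-123968942, minus strand: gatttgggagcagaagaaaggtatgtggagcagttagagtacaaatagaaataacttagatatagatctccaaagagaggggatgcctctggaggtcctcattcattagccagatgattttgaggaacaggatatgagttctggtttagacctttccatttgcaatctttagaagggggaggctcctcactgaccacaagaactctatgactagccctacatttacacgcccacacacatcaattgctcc
The first motif, AGGAAG, is an ETS-type core of the kind PU.1 binds, and 29.5% of the 32851 RefSeq promoter windows of the same 250 bases held it. For AP-1 the letters were TGANTCA, found in 6.75% of these windows. For C/EBP they were TTGCNNAA, found in 9.56%. The core of a hypoxia element was searched as ACGTG and occurred in 16.6%. A TATA box was searched as TATAAA and occurred in 12.4%. The Xcr1 window held ACGTG on both strands in 1 overlapping run, CACGTG, which reads the same on either strand. It also held the letters TATAAA on the opposite strand, 160 to 155 bases before the start site. The Ccr9 window held the ETS core on the opposite strand, 23 to 18 bases before the start site, and the Ccr1 window held none of the 5. A match is a run of letters and was not tested as a binding site. The Ccr9 window ends at 1 of several close start sites, and the annotated gene begins farther upstream with a longer transcript.

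Levels are read counts per 1000000 (CPM), on library sizes to which the authors applied TMM scaling (a trimmed mean of ratios between libraries). The libraries stood for 44425908 to 63817502 estimated reads. Ranges in brackets after a level or a fold are exact 95% intervals, Poisson for levels and binomial for folds, and cover counting error only. With 1 library per population there is no replicate error and no test between populations, so differences are described by size. A gene is called higher or lower when log2(CPM + 1) differed by at least 1 (2-fold) and 1 CPM or more was reached in at least 1 of the 2 libraries. In bulk samples, fewer cells of a type and less RNA per cell cannot be told apart. Among genes of the sort, Itgae (CD103) stood at 13.2 CPM in CD103int DC, 77.0 in cDC1, 1.1 in cDC2 and 5.50 in macrophages, and Itgam (CD11b) at 688, 36.7, 638 and 945 CPM in the same order. None of the 6 cDC2 markers was highest in the library labelled cDC2, where 3 (Cd209a, Clec10a and Irf4) were lowest. Those 3 were highest in cDC1, at 257, 191 and 152 CPM, against 31.5, 44.2 and 38.0 CPM in cDC2. The other 3, Sirpa, Mgl2 and Itgam, were higher in cDC2 than in cDC1. Sirpa stood at 1062 CPM in cDC2 against 399.7 in cDC1, and Mgl2 differed little, at 368 against 337 CPM. The 9 macrophage markers summed to 2608 CPM in CD103int DC, 772 in cDC1, 4211 in cDC2 and 3786 in macrophages. The prefix of the macrophage column's name is not that of the DC columns. The labels do not say whether it marks a batch, and such a batch and the macrophage population cannot be told apart.

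**Figure D1:**
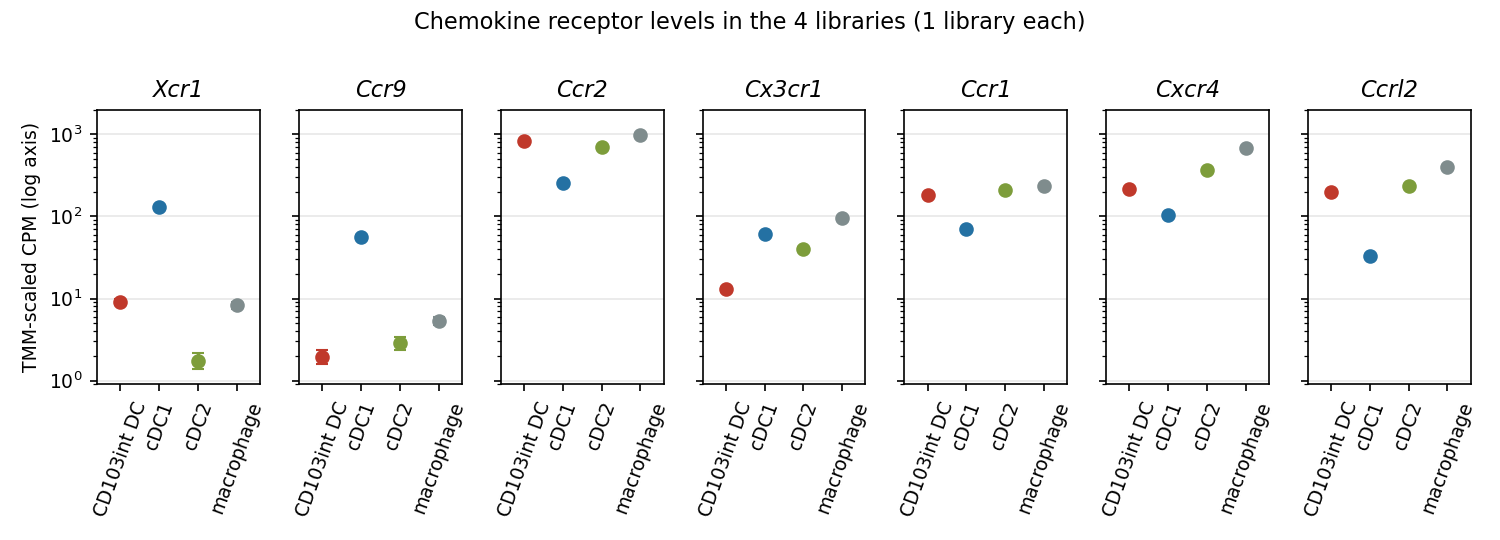
Level of each receptor gene in TMM-scaled CPM on a log axis, with 1 point per library and bars for the 95% counting interval, which are smaller than most points. Xcr1 and Ccr9 peak in cDC1, while Ccr2, Ccr1, Cxcr4 and Ccrl2 are lowest in cDC1 and Cx3cr1 is lowest in CD103int DC.

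The cDC1-type receptor Xcr1 (ENSMUSG00000060509.4, chr9:123852315-123862029, minus strand) had 9.13 (8.36 to 9.94) CPM in CD103int DC, 130.5 (127 to 134) in cDC1, 1.72 (1.37 to 2.15) in cDC2 and 8.28 (7.54 to 9.08) in macrophages. Its level in CD103int DC was 14.3-fold (13.1 to 15.7) lower than in cDC1 and 5.29-fold (4.18 to 6.78) higher than in cDC2. CD103int DC and macrophages had nearly the same level, with a ratio of 1.10 (0.970 to 1.25) whose counting interval includes 1. Xcr1 had the widest span of the 7 genes, with 75.6-fold (60.7 to 95.5) between cDC1 and cDC2. Of the 6 other cDC1 markers, 5 were also highest in cDC1, and they did not all share this spread. Clec9a, a receptor for dead-cell actin, stood at 11.4, 60.2, 10.5 and 5.82 CPM in CD103int DC, cDC1, cDC2 and macrophages, and the transcription factor gene Batf3 at 16.2, 16.1, 12.6 and 9.75 CPM.

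Ccr9 (ENSMUSG00000029530.16, chr9:123678439-123784330, plus strand) was high in cDC1 alone. It stood at 1.96 (1.61 to 2.35) CPM in CD103int DC, 56.5 (54.4 to 58.7) in cDC1, 2.85 (2.38 to 3.37) in cDC2 and 5.34 (4.74 to 5.98) in macrophages. CD103int DC were 28.9-fold (24.0 to 35.3) lower than cDC1 and 2.73-fold (2.19 to 3.43) lower than macrophages, while cDC2 differed from CD103int DC by less than 2-fold. The log2 difference from macrophages, -1.10, was -0.89 and so below the 2-fold rule after rescaling the columns to equal totals. Plasmacytoid DC also express Ccr9, and of their 5 other measured markers 4 were highest in cDC1. The 5 summed to 130.4 CPM in CD103int DC, 635 in cDC1, 165 in cDC2 and 250.2 in macrophages, with Tcf4 the largest part in cDC1. Siglech, a defining gene of plasmacytoid DC, was at 0.366, 15.0, 1.38 and 0.733 CPM in that order, and the transcription factor gene Tcf4 at 63.2, 501, 70.7 and 110.2 CPM. Pacsin1 was at 3.08, 26.4, 2.24 and 1.32 CPM, lowest in macrophages, where Ccr9 was second highest. Bst2 went another way, with 63.3, 91.6, 90.0 and 137.7 CPM and its highest level in macrophages, and Cd300c stayed below 1 CPM in all 4. Their part in the Ccr9 level of the cDC1 library was not tested. Exons of Ccr9 overlap those of other genes on both strands, and the strand setting of the authors' counting is not given in the sources used here. The 1 such gene with values, AC165425.1 on the opposite strand, had at most 1.92 CPM.

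The monocyte receptor Ccr2 (ENSMUSG00000049103.14, chr9:124101950-124113557, plus strand) was plentiful in all 4 libraries, and least so in cDC1. It stood at 832 (824 to 839) CPM in CD103int DC, 254 (249 to 258) in cDC1, 701 (693 to 708) in cDC2 and 978 (969 to 986) in macrophages. Only cDC1 was apart by the 2-fold rule, with CD103int DC 3.28-fold (3.21 to 3.34) higher than cDC1. CD103int DC were 1.19-fold (1.17 to 1.20) above cDC2 and 1.18-fold (1.16 to 1.19) below macrophages, and after rescaling to equal totals CD103int DC led, at 853 CPM against 836 CPM in macrophages. The estimated reads of Ccr2, like those of Ccr9, were not whole numbers, so how the counting assigned some of its reads is uncertain. The other 5 genes had whole numbers in all 4 libraries, at a tolerance of 0.02 reads.

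Cx3cr1 (ENSMUSG00000052336.7, chr9:119901616-120069879, minus strand) was the 1 gene besides Ccr9 with its lowest level in CD103int DC. It had 13.0 (12.1 to 14.0) CPM in CD103int DC, 61.3 (59.1 to 63.5) in cDC1, 40.4 (38.6 to 42.3) in cDC2 and 94.5 (92.0 to 97.2) in macrophages. CD103int DC were lower by the 2-fold rule than each of the 3 other libraries, by 4.70-fold (4.34 to 5.10) against cDC1, 3.10-fold (2.85 to 3.38) against cDC2 and 7.26-fold (6.72 to 7.85) against macrophages. None of the other 6 genes was called in 1 direction against all 3 libraries. The annotated span of Cx3cr1 covers several other genes, through 1 long transcript, but its exons overlap only those of Gm33858 on the opposite strand, which was not analysed here. Of the 6 monocyte markers other than Ccr2, 5 were highest in the macrophage library, and the 6 summed to 422 CPM in CD103int DC, 1093 in cDC1, 615 in cDC2 and 4518 in macrophages. Ly6c2, which defines classical monocytes, was at 132, 233, 236 and 1371 CPM in this order, and the part of monocyte content in the Cx3cr1 and Ccr2 levels was not tested.

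The inflammatory receptor Ccr1 (ENSMUSG00000025804.5, chr9:123962124-123968692, minus strand) followed Ccr2 closely. It had 185 (181 to 188) CPM in CD103int DC, 70.4 (68.1 to 72.8) in cDC1, 209.6 (205 to 214) in cDC2 and 236 (232 to 241) in macrophages. CD103int DC were 2.62-fold (2.52 to 2.72) higher than cDC1, and differed from cDC2 and macrophages by less than 2-fold. The order of cDC2 and macrophages depended on scaling, with 216 and 202 CPM after rescaling to equal totals.

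Cxcr4 (ENSMUSG00000045382.6, chr1:128588199-128592293, minus strand), the Cxcl12 receptor that retains leukocytes in the bone marrow, was lowest in cDC1 and highest in macrophages. Its levels were 217 (214 to 221) CPM in CD103int DC, 104 (101 to 107) in cDC1, 372 (367 to 378) in cDC2 and 679 (672 to 686) in macrophages. CD103int DC were 2.09-fold (2.02 to 2.16) higher than cDC1 and 3.12-fold (3.06 to 3.19) lower than macrophages. The difference from cDC1, 1.05 on the log2 scale, was 0.95 and so below the 2-fold rule after rescaling to equal totals.

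Ccrl2 (ENSMUSG00000043953.12, chr9:111054486-111057519, minus strand) showed the same order with a wider span. It stood at 197 (193 to 200.3) CPM in CD103int DC, 33.2 (31.7 to 34.9) in cDC1, 237 (232 to 241) in cDC2 and 399.8 (394 to 405) in macrophages. CD103int DC were 5.91-fold (5.61 to 6.23) higher than cDC1. Against macrophages they were 2.03-fold (1.99 to 2.08) lower, a log2 difference of -1.02 that became -0.76 after rescaling to equal totals. Cmklr1, the signalling receptor for chemerin, was also lowest in cDC1, at 119.7, 17.0, 171 and 158 CPM in CD103int DC, cDC1, cDC2 and macrophages.

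Taken per kilobase of annotated exon, levels could be set between genes of 1 library. In CD103int DC, Ccr2 (123 CPM per kb) and Cxcr4 (120.2) led, then Ccrl2 (75.7) and Ccr1 (65.1), with Cx3cr1 (2.89), Xcr1 (2.05) and Ccr9 (0.191) far below. In cDC1 the order was Cxcr4 (57.6 CPM per kb), Ccr2 (37.5), Xcr1 (29.3), Ccr1 (24.9), Cx3cr1 (13.6), Ccrl2 (12.8) and Ccr9 (5.51). The exon lengths, between 1808 bases for Cxcr4 and 10260 for Ccr9, merge all annotated transcripts and so understate genes with long minor forms.

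Set against cDC1, CD103int DC differed in all 7 genes, which were chosen with earlier results of these data known. Ccr2, Ccr1, Cxcr4 and Ccrl2 were higher, 4 of 7 where 10.1% of all 12943 genes compared were higher, and Xcr1, Ccr9 and Cx3cr1 were lower, 3 of 7 where 6.77% were. The median log2 difference of the 7 was 1.05 and the mean -0.49, of opposite sign, against a median of 0.01 over all genes. Against cDC2, the 5 genes Ccr9, Ccr2, Ccr1, Cxcr4 and Ccrl2 were within 2-fold. Xcr1 was higher in CD103int DC (log2 difference 1.89, background 1.95% of 12682 genes) and Cx3cr1 lower (-1.56, background 0.986%). The median of the 7 in that comparison was -0.27, and that of all genes 0.00. Against macrophages, none of the 7 was higher (background 5.17% of 12622 genes), and Ccr9, Cx3cr1, Cxcr4 and Ccrl2 were lower (background 6.62%), with a median of -1.02 against 0.00 over all genes. After rescaling to equal totals, which moved the median of all genes in this comparison by 0.23, Cx3cr1 and Cxcr4 were the 2 still lower by the rule.

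**Figure D2:**
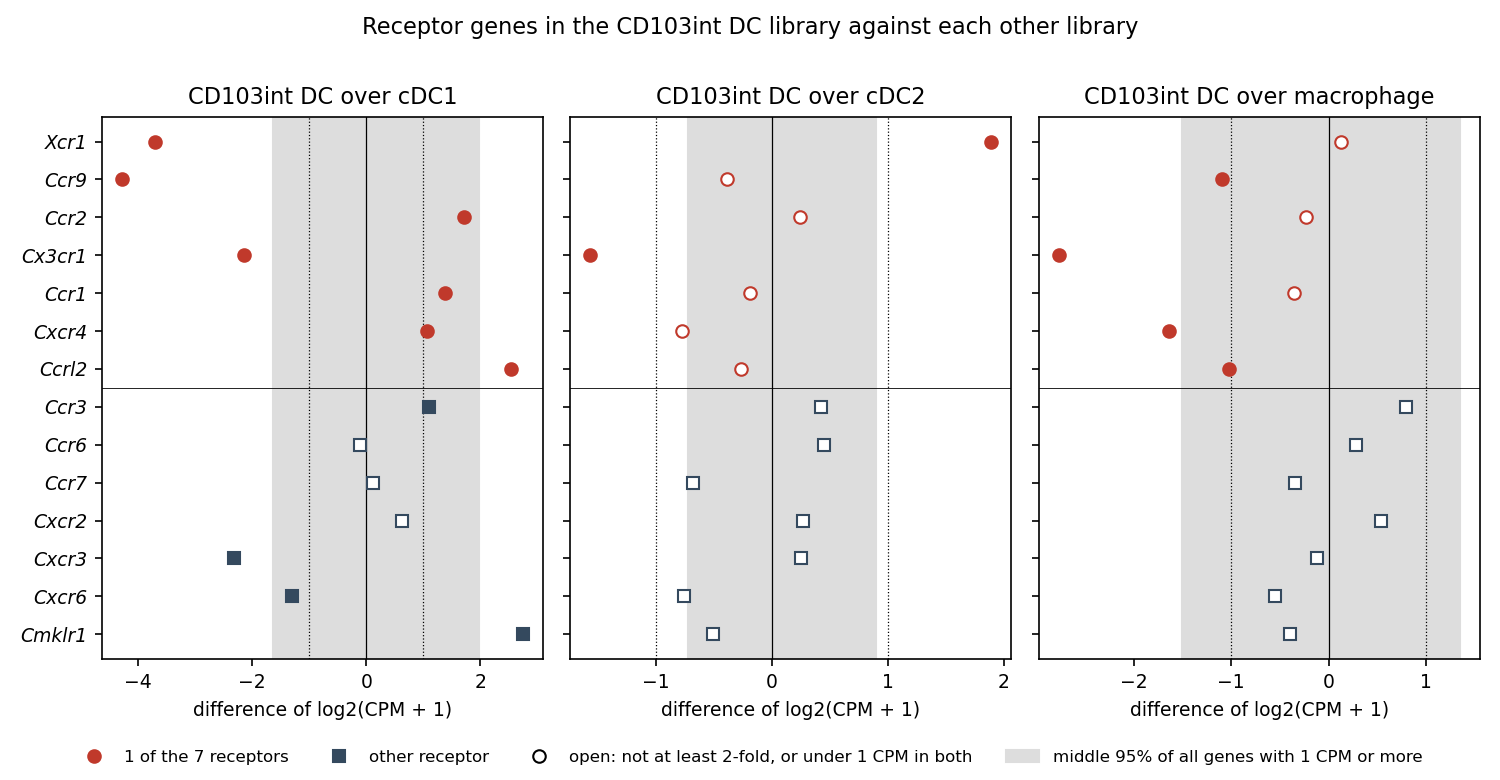
Difference of log2(CPM + 1) between the CD103int DC library and each other library for the 7 receptor genes (circles) and the 7 other measured receptor genes (squares). Filled symbols differ by at least 2-fold on this scale, on which dotted lines mark 2-fold. Open symbols of low genes can differ by more as a ratio of CPM. The grey band holds the middle 95% of all genes with at least 1 CPM. All 7 circles are filled against cDC1, 2 against cDC2 and 4 against macrophages.

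The pairs without CD103int DC show the same divide around cDC1. In cDC1 against cDC2, Xcr1 and Ccr9 were higher (background 8% of genes) and Ccr2, Ccr1, Cxcr4 and Ccrl2 lower (background 10.6%). The same genes were called in the same directions in cDC1 against macrophages (backgrounds 11.4% and 14.3%), with Ccrl2 12.02-fold (11.4 to 12.7) and Cxcr4 6.52-fold (6.33 to 6.71) lower in cDC1. In cDC2 against macrophages, 0 of 7 were higher (background 2.45%) and Xcr1 and Cx3cr1 were lower (background 4.66%), by 4.80-fold (3.78 to 6.17) and 2.34-fold (2.22 to 2.47). The Cx3cr1 difference, -1.21 on the log2 scale, was -0.94 and no longer called after rescaling to equal totals. These comparisons share libraries with each other and with those of CD103int DC.

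The other receptors were 7 measured of 17 listed, and 6 of the 7 reached 1 CPM in CD103int DC or cDC1. Against cDC1, 2 of 6 were higher in CD103int DC (background 10.1% of genes) and 2 lower (background 6.77%), with a median log2 difference of 0.37 over the 6 that reached 1 CPM in either library. Cmklr1 was 7.02-fold (6.54 to 7.55) higher. Ccr3, an eosinophil receptor for eotaxins, was at 1.15 CPM in CD103int DC and listed at 0 in cDC1. Cxcr3, which binds interferon-induced chemokines, was lower, at 1.43 CPM in CD103int DC, 11.05 in cDC1, 1.03 in cDC2 and 1.65 in macrophages, as was Cxcr6, the Cxcl16 receptor, at 0.679, 3.14, 1.83 and 1.47 CPM. T cells and NK cells also express these 2 receptors. The 5 T cell markers summed to 0.906 CPM in CD103int DC, 10.6 in cDC1, 10.8 in cDC2 and 4.53 in macrophages, and the 6 NK cell markers to 0.941, 12.2, 14.1 and 4.23 CPM, and their part in the levels of Cxcr3 and Cxcr6 was not tested. Against cDC2 and against macrophages none of the 6 that reached 1 CPM differed by the rule, with medians of -0.13 and -0.24. The backgrounds were 1.95% higher and 0.986% lower against cDC2, and 5.17% and 6.62% against macrophages. The 1 CPM added by the rule understates changes at low levels. As ratios of CPM, Ccr3 was 4.83-fold (2.64 to 9.54) higher than in macrophages. Cxcr6 was 2.70-fold (1.83 to 4.05) lower than in cDC2 and 2.16-fold (1.45 to 3.25) lower than in macrophages. Cxcr2, a neutrophil receptor, was at 2.26, 1.12, 1.70 and 1.25 CPM in CD103int DC, cDC1, cDC2 and macrophages, and Ccr6 was below 1 CPM in all 4. Ccr7, the receptor that takes mature DC to lymph nodes, was at 11.1, 10.2, 18.3 and 14.4 CPM in CD103int DC, cDC1, cDC2 and macrophages.

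By position, the divide against cDC1 followed the order of the measured receptor genes along the chromosome 9 cluster. From Ccr9 through Cxcr6 to Xcr1 the log2 difference of CD103int DC from cDC1 was -4.28, -1.30 and -3.70. On the other side of Xcr1 it was 1.38 for Ccr1, 1.10 for Ccr3 and 1.71 for Ccr2, all within 240 kb of the Xcr1 start site. Ccr3 and Cxcr6 add little to this order, as both were low. It rests mainly on Ccr9 and Xcr1 against Ccr1 and Ccr2, which were chosen with earlier results of these data known. Ccr3 was at 1.15 CPM in CD103int DC and 0 in cDC1, and Cxcr6 at 0.679 and 3.14 CPM. The part of T cells and NK cells in the Cxcr6 level was not tested. Genes between or beside the receptors that are no receptors differed less, with Lztfl1 at -0.19, Fyco1 at -0.69, Sacm1l at 0.10 and Limd1 at -0.33. Slc6a20b, at 0.33, was below 1 CPM in all 4 libraries. Cxcr6 lies inside Fyco1 on the opposite strand. Cx3cr1 and Ccrl2 lie on the same chromosome outside this cluster. Ccrl2, and Cxcr4 on chromosome 1, were higher in CD103int DC than in cDC1, as Ccr1 and Ccr2 were.

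**Figure D3:**
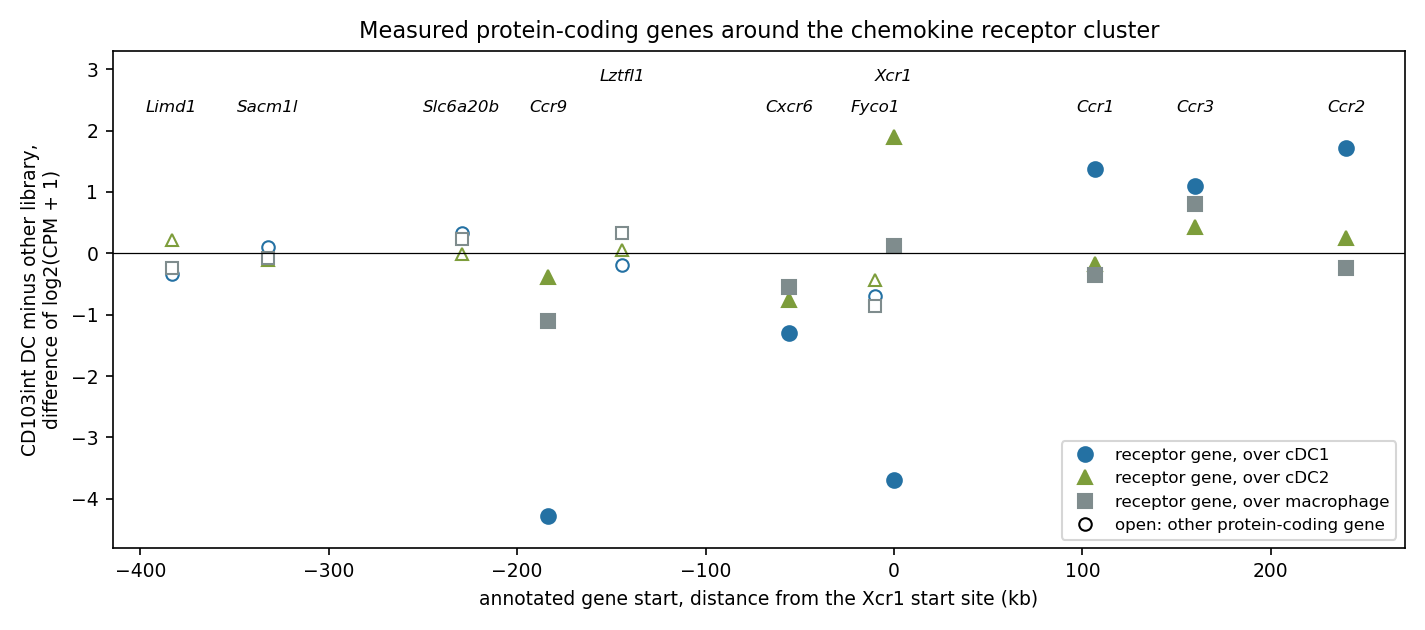
Difference of log2(CPM + 1) between CD103int DC and each other library for the measured protein-coding genes of the cluster, plotted by the distance of the annotated gene start from that of Xcr1 in kb. Filled symbols are receptor genes and open ones other genes. Against cDC1 (circles) the receptors up to Xcr1 lie below 0 and those from Ccr1 on above 0. Levels of Ccr3 and Cxcr6 are low, at 1.15 and 0.679 CPM in CD103int DC and 0 and 3.14 CPM in cDC1.

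By the shape of their profile over the 4 libraries (log2(CPM + 1) less its own mean), Ccr1 and Ccr2 were the most alike pair of the 7, with a root mean square difference of 0.17. Ccr9 and Xcr1 differed by 0.84, and Ccrl2 and Xcr1 were farthest apart at 3.26. Genes with symbols of Gm plus digits or ending in Rik were left out of the search for nearest profiles. Among all other genes with at least 10 CPM in some library, the closest to Xcr1 was Gcsam (0.15), to Ccr9 Mctp2 (0.23) and to Ccr2 Qpct (0.03). The closest to Ccr1 was Slc43a2 (0.02), to Cxcr4 Cd274 (0.05) and to Ccrl2 Gab1 (0.05). Next in line were Gpr141b and Cd209e for Xcr1, Adam11 and Ttc39a for Ccr9, Tnfrsf21 and P2ry10b for Ccr2, Vsir and Plgrkt for Ccr1, Abcb1a for Cxcr4, and Aatk and Trem1 for Ccrl2. Cx3cr1 had no gene as close, the nearest being Ripor2 (0.36), Lipg (0.39) and Cyfip2 (0.40). Cd274 encodes PD-L1, and stood at 138, 65.8, 216 and 419.8 CPM in CD103int DC, cDC1, cDC2 and macrophages. The added 1 CPM understates differences of low genes and so makes some profiles look closer. Gcsam stood at 38.0 CPM in cDC1 and 0.0431 in cDC2, against 130.5 and 1.72 CPM for Xcr1. Gab1 stood at 0.714 CPM in cDC1 and 19.2 in macrophages, against 33.2 and 399.8 CPM for Ccrl2. With 4 libraries, likeness of this kind is a description of 4 points.

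Ligand genes for these receptors were measured for 11 of 15 listed. Against cDC1, 8 of 11 were higher in CD103int DC and 1 lower (backgrounds 10.1% and 6.77% of genes), with a median log2 difference of 1.94 against 0.01 over all genes. Of the Ccr2 ligands, Ccl2 had 30.7 (29.3 to 32.2) CPM in CD103int DC, 1.18 (0.898 to 1.53) in cDC1, 33.4 in cDC2 and 66.5 in macrophages, and Ccl7 had 11.4 CPM in CD103int DC, 17.1 in cDC2 and 28.5 in macrophages and was listed at 0 in cDC1. Ccl12, a further Ccr2 ligand, was at 4.32, 0.387, 11.1 and 11.97 CPM in CD103int DC, cDC1, cDC2 and macrophages, and Ccl8 at 5.54, 1.04, 21.3 and 5.64 CPM.

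The Ccr1 ligands fell in 2 groups. Ccl6 and Ccl9 were highest in CD103int DC, Ccl6 at 985, 70.5, 651 and 221 CPM in CD103int DC, cDC1, cDC2 and macrophages and Ccl9 at 655, 38.7, 490.0 and 268 CPM. Against macrophages CD103int DC were 4.45-fold (4.36 to 4.54) higher for Ccl6 and 2.45-fold (2.40 to 2.49) for Ccl9. Ccl3 and Ccl5 were highest in macrophages, Ccl3 at 18.7, 4.12, 29.8 and 45.3 CPM and Ccl5 at 10.5, 6.05, 26.4 and 39.5 CPM in the same order.

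Xcl1, the Xcr1 ligand, had 0.0697 (0.0190 to 0.178) CPM in CD103int DC, which is 4 estimated reads, against 7.73 in cDC1, 4.27 in cDC2 and 0.311 in macrophages. The summed NK cell markers given above were likewise lowest in CD103int DC, and their part in the Xcl1 level was not tested. Ccl25, for Ccr9, was at 4.42, 1.22, 5.98 and 6.16 CPM in CD103int DC, cDC1, cDC2 and macrophages. It was lowest in cDC1, where its receptor was highest. All measured ligand genes other than Xcl1 and Cx3cl1 were also lowest in cDC1, and Xcl1, like its receptor, was highest there. Cx3cl1 was at 2.75, 2.41, 1.53 and 0.311 CPM in the same order of libraries. CD103int DC, with the least Cx3cr1, were 8.83-fold (5.35 to 15.5) higher than macrophages in its ligand. Both Cx3cr1 and Cx3cl1 were second highest in cDC1. Against cDC2, 0 of 11 ligand genes were higher in CD103int DC and 4 were lower (Xcl1, Ccl8, Ccl12 and Ccl5, backgrounds 1.95% and 0.986%), and against macrophages 3 were higher and 5 lower of the 10 with at least 1 CPM (backgrounds 5.17% and 6.62%). After rescaling to equal totals, Ccl12 and Ccl5 were the 2 ligand genes still lower than in macrophages, and Ccl2, Ccl3 and Ccl7 were not. Cxcl12, Rarres2, Ccl19 and Ccl21a were not analysed here.

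**Figure D4:**
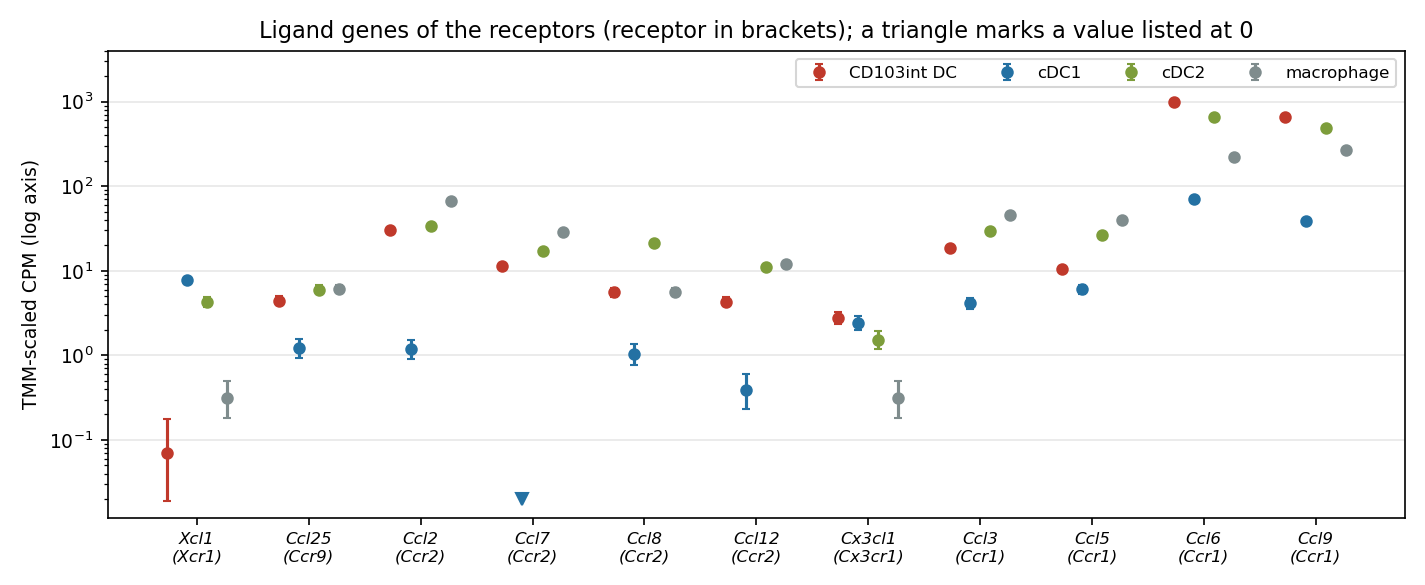
Level of each measured ligand gene in TMM-scaled CPM on a log axis, with its receptor in brackets, 1 point per library and bars for the 95% counting interval. Ccl6 and Ccl9 are highest in CD103int DC, the Ccr2 ligands are lowest in cDC1, and Ccl7 is listed at 0 in cDC1.

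Of 20 measured signalling and shut-off genes of chemokine receptors, 4 were higher in CD103int DC than in cDC1 (background 10.1% of genes) and 3 lower (background 6.77%). Against cDC2, 0 were higher and 1 lower (backgrounds 1.95% and 0.986%), and against macrophages none of the 20 was called (backgrounds 5.17% and 6.62%). By ratio of CPM, Rgs16 was 4.49-fold (2.53 to 8.48) lower than in macrophages, at 0.261 against 1.17 CPM, too low a level to be called. Their median log2 differences were 0.16, 0.02 and -0.13 in these comparisons. Gnai2, the main inhibitory G protein chain of leukocytes, was at 948, 931, 914 and 806 CPM in CD103int DC, cDC1, cDC2 and macrophages. Against cDC1, the 4 genes higher in CD103int DC were the arrestin gene Arrb1 (2.13-fold), the receptor kinase gene Grk5 (3.79-fold), and Rgs1 (3.31-fold) and Rgs10 (2.07-fold), whose products speed the shut-off of G proteins. Arrb1 and Rgs10 were within 2-fold after rescaling to equal totals. The 3 lower genes were Grk6, another receptor kinase (46.9 CPM in CD103int DC, 142 in cDC1), Rgs16 (0.261 and 10.9 CPM) and Rgs18 (9.65 and 23.4 CPM). Rgs16 was also the 1 gene lower than in cDC2, where it had 3.87 CPM.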

How the data were processed

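RNA of 4 sorted populations was sequenced with 1 library each, from total RNA with a directional kit, per the labels' protocols. The deposited values are an expression signal of 13976 genes, which the name of the deposited table gives as filtered CPM scaled by TMM. Column totals ran from 905670 to 1169346 CPM. For the aligner, counter, strand setting, build and filter rule, the sources used here say nothing. Identifier and symbol of all 13976 genes matched GENCODE release M21 (GRCm38), which gave positions and exon lengths. Values came in units of 0.01 of a step within each column (tolerance 0.001 steps), and 70.6% to 79.0% of values above 0 were whole steps. The step, 0.0174 to 0.0216 CPM, was taken as 1 estimated read, so that 10 CPM stood for 464 to 574 reads. Amplified reads that carry no molecular identifier cannot be taken as separate molecules.

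No test was run, because each population had 1 library, and p-values and SDs are not given. Differences were taken on log2(CPM + 1), which understates changes of low genes, and printed folds are ratios of CPM. Python 3.11.15, pandas 2.3.3, NumPy 2.4.6, SciPy 1.17.1 and matplotlib 3.10.9 were used. The code of the 2-fold rule was run on simulated Poisson counts with 4-fold changes set in genes of 10 CPM or more. Those counts held counting error only, so the run says nothing of differences between animals or sorts. Genes named were the 7 receptors, the listed other receptors, their ligands and signalling genes, and for each receptor the 3 genes of nearest profile, except for 2 genes that are not reported here. The 7 genes, lists and rules were chosen with earlier results of these data known. Alternatives were 2 other scalings, a pseudocount of 0.1 CPM, a minimum of 10 CPM or none, and a 4-fold threshold.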

Additional observations from a re-analysis of the deposited data

How the results depend on the processing

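Counting limits little here except for Xcr1 in cDC2 and Ccr9 in CD103int DC and cDC2, which rest on 80, 112 and 132 reads; with 1 library each, differences between animals or sorts are not covered. No paired analysis was possible because no population had more than 1 library and no test was run, and for the same reason no library could be left out. Of 126 recomputed log2 differences of the 7 genes, 34 moved by more than counting error and 0 reversed a called direction. Calls changed in 4, all after rescaling to equal totals, namely Cxcr4 over cDC1 (0.95), Ccr9 (-0.89) and Ccrl2 (-0.76) over macrophage for CD103int DC, and Cx3cr1 for cDC2 over macrophage (-0.94). That rescaling left 2 of the 7 genes called for CD103int DC over macrophage, in place of 4, and 1 in place of 2 for cDC2 over macrophage. It turned the split of all called genes from 652 higher and 836 lower to 1074 and 502 for CD103int DC over macrophage, from 1473 and 1849 to 2447 and 1283 for cDC1 over macrophage, and from 311 and 590 to 654 and 303 for cDC2 over macrophage, and it moved their medians by 0.23, 0.33 and 0.24. Median-ratio scaling changed no call of the 7 genes. A 4-fold threshold left 4 of 7 genes for CD103int DC over cDC1, 0 over cDC2 and 1 over macrophage, 3 for cDC1 over cDC2 and 0 for cDC2 over macrophage. A minimum of 10 CPM left 1 of the 5 genes compared for CD103int DC over cDC2, and 1 of 5 for cDC2 over macrophage. Xcr1 and Ccr9 were under that minimum in both libraries of each pair. Over all genes, the 4-fold threshold gave 508, 40, 198, 625, 840 and 92 calls, in the order CD103int DC over cDC1, cDC2 and macrophage, cDC1 over cDC2 and macrophage, and cDC2 over macrophage, against 2179, 372, 1488, 2418, 3322 and 901 at 2-fold. The minimum of 10 CPM gave 1234 and 181 for CD103int DC over cDC1 and cDC2, and 1424 and 2119 for cDC1 over cDC2 and macrophage. A pseudocount of 0.1 CPM gave 685 for CD103int DC over cDC2 and 1513 for cDC2 over macrophage. For CD103int DC over cDC1, 4 of 6 other receptor genes were called at the main settings. The minimum of 10 CPM gave 2 of 3 compared, and the 4-fold threshold 2 of 6. With the pseudocount of 0.1 CPM, 1 was called for CD103int DC over cDC2 and 2 over macrophage, in place of 0. Stricter minimums and thresholds lower counts by construction.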
